A study of Homo sapiens with 8 samples.

Results

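The replication-dependent histone genes encode the linker histone H1 and the core histones H2A, H2B, H3 and H4 that package newly made DNA. They were taken as all genes whose older symbol, reached through the RefSeq accession of each entry, begins with HIST1H, HIST2H, HIST3H or HIST4H. This gave 72 of the 26588 genes in the tables, in 74 transcripts: 6 H1, 18 H2A, 20 H2B, 14 H3 and 14 H4 genes. By the older symbols, 56 lie in the HIST1 cluster on chromosome 6, 12 in HIST2 and 3 in HIST3 on chromosome 1, and 1 is HIST4 on chromosome 12. A mean of at least 1 FPKM over all libraries (fragments per kilobase of transcript, scaled to library size) was reached by 62 members and by 13387 genes in all, and these are the genes compared.

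Total RNA came from the established embryonic stem cell line H1, of human origin, grown without feeder cells. All cells carried a short hairpin RNA that doxycycline switches on, either aimed at EXOSC3 (shEXOSC3) or non-silencing (shNS), and all were kept in medium with puromycin. EXOSC3 belongs to the core of the RNA exosome, a complex that degrades RNA from its 3′ end. The 8 groups were shEXOSC3 with doxycycline, shEXOSC3 without doxycycline, shNS with doxycycline and shNS without doxycycline, each after 7 and after 5 days, with 1 library per group. The labels name 1 hairpin against EXOSC3, so an effect of the EXOSC3 sequence and another effect of that hairpin cannot be told apart.

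Most messenger RNAs end in a poly(A) tail. Replication-dependent histone mRNAs end instead in a conserved stem-loop that is bound by the stem-loop binding protein SLBP and cut with the help of the U7 small nuclear ribonucleoprotein. They are made in S phase under the coactivator NPAT and are removed when DNA synthesis stops, by a pathway that starts with oligouridylation and includes the 3′ exonuclease ERI1, the LSM1 to LSM7 ring, UPF1, XRN1 and the exosome. Libraries from total RNA after removal of ribosomal RNA keep such tail-less transcripts, which selection on poly(A) would lose.

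The stem-loop is typical of this gene family and rare among other mRNAs. Sites of members from each core histone class are printed here, among them those of H2BC26, H4C5 and H4C11, whose values are given later. Of 72 member transcripts matched in GENCODE 29, 31 hold the histone stem-loop consensus on the coding strand, in 5 forms. Among all 83129 protein-coding transcripts 44 hold it, or 0.0529%. Of the rest, 35 member transcripts end at their stop codon in that annotation, so the stretch is outside the model. The capitals mark the stem and loop, and 5 bases on each side are in lower case.
H2AC8: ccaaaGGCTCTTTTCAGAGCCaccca
H2BC4: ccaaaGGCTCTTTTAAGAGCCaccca
H2BC5: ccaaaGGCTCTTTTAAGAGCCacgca
H2BC26: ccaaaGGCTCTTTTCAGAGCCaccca
H3C10: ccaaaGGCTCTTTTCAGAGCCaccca
H4C5: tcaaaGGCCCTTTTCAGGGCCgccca
H4C11: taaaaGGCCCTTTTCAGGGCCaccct
H4C16: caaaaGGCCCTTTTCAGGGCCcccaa
The printed sites of H2AC8, H2BC26 and H3C10 are identical over all 26 bases, although the genes encode different histones. Those of H4C5, H4C11 and H4C16 share another form of stem and loop, which 5 member transcripts hold.

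The targeted gene was lower in both doxycycline libraries of the shEXOSC3 line. EXOSC3 stood at 12.3 FPKM with doxycycline against 25.2 without it on day 7, and at 11.3 against 25.2 on day 5. In shNS it stood at 27.4 against 30.3 FPKM on day 7 and at 27.8 against 27.3 on day 5. The embryonic stem cell markers were expressed in every library, among them POU5F1 (139 to 171 FPKM), SOX2 (172 to 262) and LIN28A (436 to 633). All 8 markers of this list together summed to 2246 FPKM with doxycycline against 2982 without it in shEXOSC3 and 2461 against 2954 in shNS on day 7, and to 1914 against 2502 and 2104 against 2404 on day 5. Their median adjusted log2 difference, the shEXOSC3 ratio minus the shNS ratio, was -0.21 on day 7 (5 of 8 below 0) and -0.25 on day 5 (6 of 8). Among all genes 51.3% and 49.9% were below 0 on these days. A relation of the markers to the histone values was not tested. Relative depth, read from the steps between low FPKM, was 0.927 (day 7) and 1.01 (day 5) for doxycycline over no doxycycline in shEXOSC3, and 1.33 and 1.59 in shNS. The depths themselves are unknown. The tables give no whole counts, so no counting interval is given.

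Histone messages were among the most abundant RNAs. The 72 members together made up between 2.15% and 2.47% of the FPKM total in day 7 libraries and between 6.29% and 6.94% in day 5 libraries. On average over the libraries, 47 members reached 100 FPKM and 8 reached 1000 FPKM, a scale that already divides by transcript length. The highest was H4C6 (hg19 chr6:26240654-26241021), with 524 and 542 FPKM in shEXOSC3 with and without doxycycline and 529 and 536 in shNS on day 7. On day 5 the same libraries had 2420, 2957, 2942 and 2595 FPKM. The others with 1000 FPKM or more were H4C4, H4C3 and H4C8, the core H2B genes H2BC5 and H2BC4, and the linker histone genes H1-5 and H1-3.

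**Figure D1:**
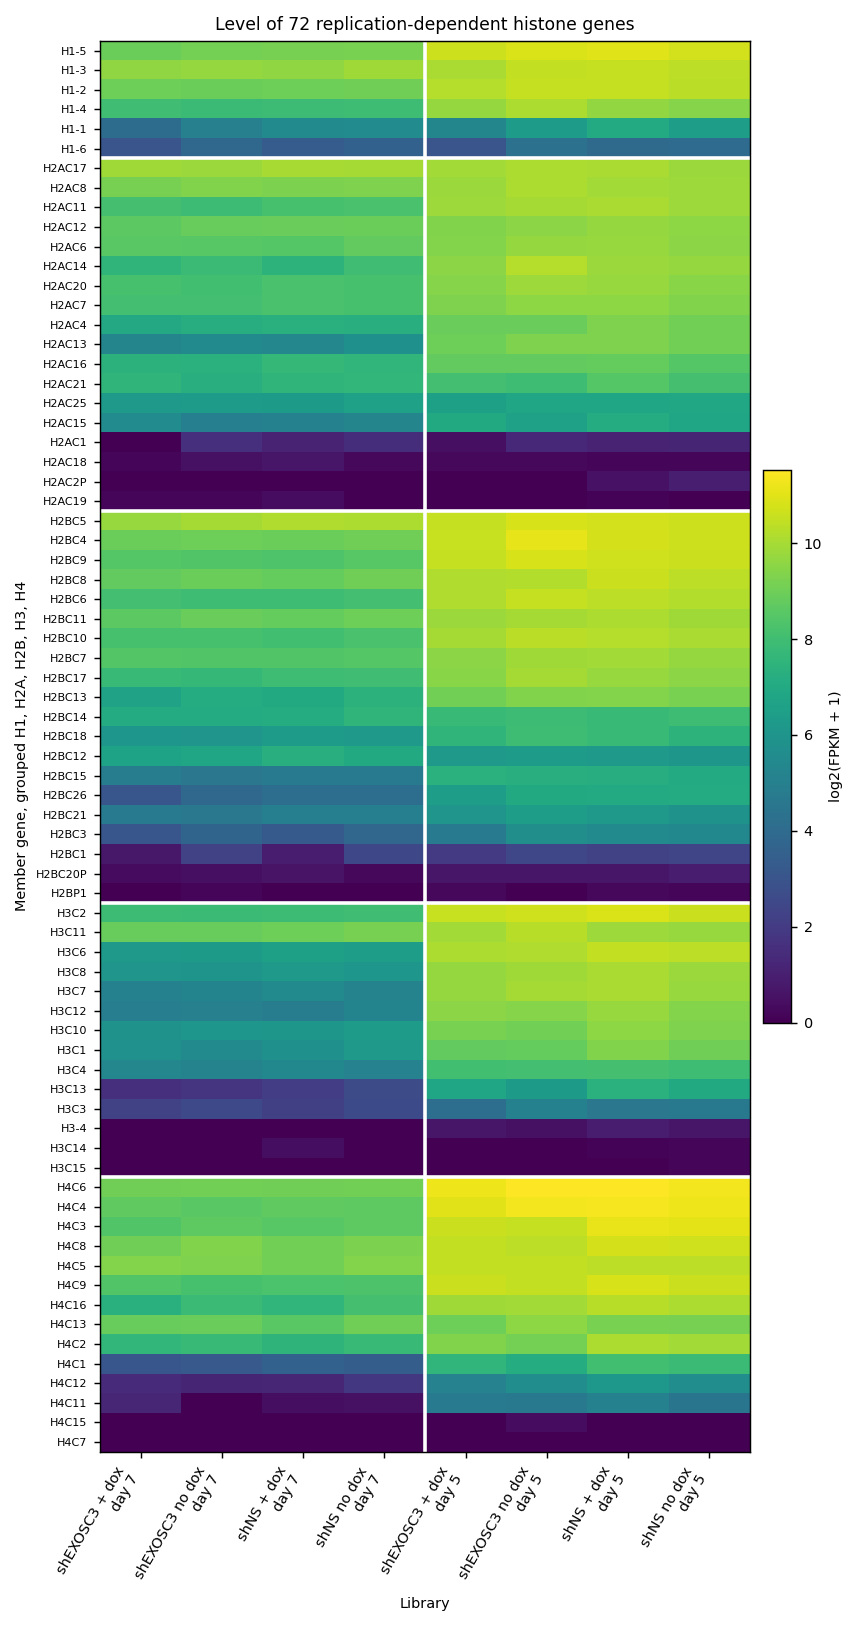
Level of each of the 72 histone genes (rows, grouped by class and ordered by mean) in each of the 8 libraries (columns), as log2(FPKM + 1) in colour. The day 7 libraries on the left are darker than the day 5 libraries for 58 of the 62 members compared, and H4C7 was listed at 0 in all 8.

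The 10 members below the minimum never reached 1 FPKM in any library. They include H2AC18 and H2AC19, which share 100% and 97.1% of their 50-base stretches with another member, and the pair H3C14 and H3C15, which share 100%. The sources used here do not say how the authors divided reads among such copies, which makes these low values uncertain. The same holds for H4C12 (100% shared with H4C11), H4C11 (81.2%), H2AC14 (83.7%) and H2AC13 (62.3%), which were compared. Others below the minimum were the testis gene H3-4 and 3 entries named as pseudogenes, H2BC20P, H2AC2P and H2BP1.

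With doxycycline on day 5, histone messages were slightly lower in shEXOSC3 and slightly higher in shNS. The summed level of all members was 44443 FPKM with doxycycline against 51848 without it in shEXOSC3, or 85.7%, and 54485 against 48279 FPKM in shNS, or 113%. The median log2 ratio of doxycycline over no doxycycline, computed on FPKM + 1, was -0.27 in shEXOSC3 and 0.18 in shNS, where all genes had medians of 0.00 and 0.01. In shEXOSC3 49 of 62 members were below 0, against 48% of all genes, and in shNS 54 were above 0, against 51.8%. The differences are small: members at least 2-fold lower numbered 2 in shEXOSC3, H1-1 and H1-6, against 0.807% of all genes, and 0 in shNS, against 0.627%. No member (0) was at least 2-fold higher in either line, where 1.37% of genes were in shEXOSC3 and 0.747% in shNS.

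On day 7 the medians were smaller in size and below 0 in both lines, with most members lower in shNS. Summed FPKM were 14853 against 15428 in shEXOSC3 (96.3%) and 15544 against 16872 in shNS (92.1%). Medians were -0.05 and -0.12, with 36 and 46 of 62 members below 0 against 50.4% and 50.2% of all genes. In shEXOSC3 H2AC1 and H2BC1 were at least 2-fold lower, where 1.17% of genes were, and H4C11 was higher, where 1.98% were. In shNS H2BC1 was lower, where 0.926% of genes were, and 0 members were higher, where 1.32% were. With a pseudocount of 5 FPKM 0 members passed in any of these comparisons, and with a minimum of 5 FPKM the lower members on day 7 were 0 in both lines.

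**Figure D2:**
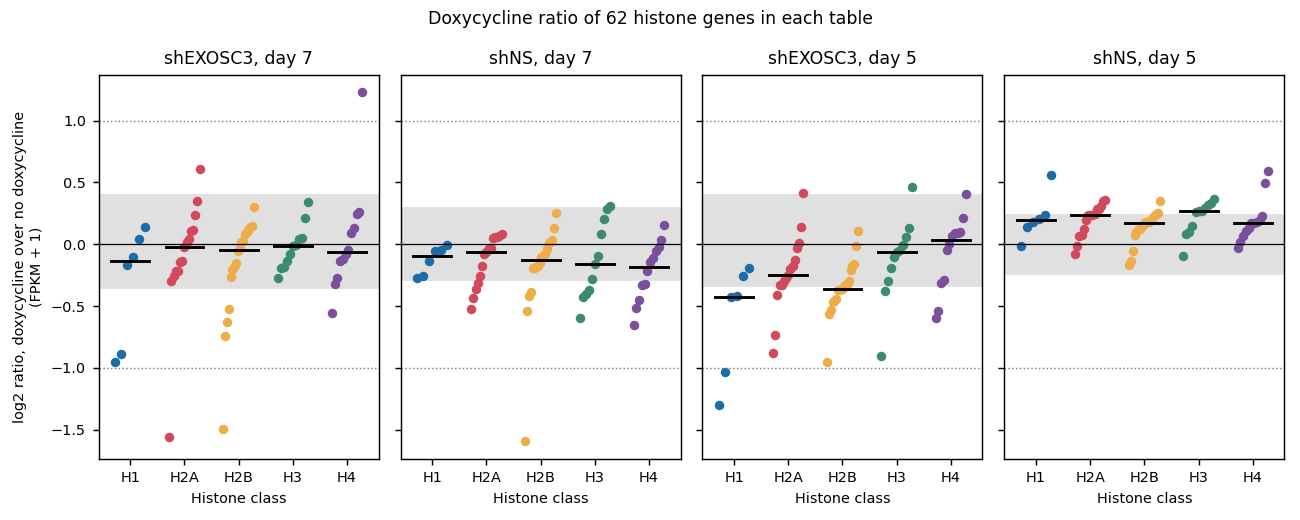
Log2 ratio of doxycycline over no doxycycline (FPKM + 1) for the 62 members in each line and day, 1 point a gene, by histone class. Black bars are class medians, the grey band holds the middle 80% of all genes and dotted lines mark 2-fold. On day 5 most points lie below 0 in shEXOSC3 and above 0 in shNS. On day 7 they lie on both sides of 0 in shEXOSC3 and mostly below 0 in shNS.

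Subtracting the shNS ratio from the shEXOSC3 ratio on each day gives the adjusted log2 difference, which takes out what doxycycline did in the control line. On day 7 its median over members was 0.10, with 25 of 62 below 0 against 51.3% of all genes. On day 5 it was -0.44, with 56 of 62 below 0 against 49.9%. When the doxycycline libraries were instead compared across the separately made tables, the day 7 median turned to -0.07, with 41 members below 0. The day 5 median was then -0.30. This comparison leaves out the libraries without doxycycline, so it also holds any difference between the lines without doxycycline. When FPKM were rescaled over loci of at least 300 bp, the day 5 median of all genes moved to 0.14 and that of members to -0.28. Whether the 2 days differ was not tested.

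By class, the day 5 median was lowest for H1 (-0.62, 6 of 6 genes below 0) and H2B (-0.49, 18 of 18). It was -0.40 for H2A (14 of 15 below 0), -0.35 for H3 (10 of 11) and -0.17 for H4 (8 of 12). On day 7 class medians were -0.03 for H1, 0.06 for H2A, 0.07 for H2B, 0.13 for H3 and 0.15 for H4. The order of classes was not tested. In shEXOSC3 alone, the day 5 median ratios were -0.43 for H1, -0.25 for H2A, -0.36 for H2B, -0.06 for H3 and 0.03 for H4.

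**Figure D3:**
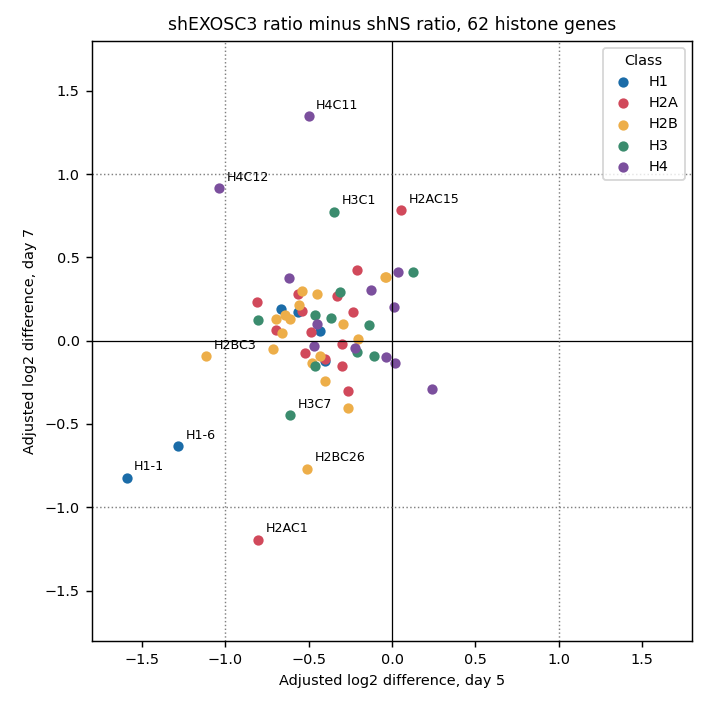
Adjusted log2 difference (shEXOSC3 ratio minus shNS ratio) of the 62 members on day 5 (horizontal) and day 7 (vertical), coloured by class, with dotted lines at 2-fold. Most points lie left of 0 and on either side of 0 vertically, and H1-1, H1-6 and H2AC1 lie farthest toward the lower left.

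Few members were apart from the group. On day 7 H2AC1 was at least 2-fold lower by the adjusted difference, where 1.9% of all genes were, and H4C11 higher, where 2.38% were. On day 5 H1-1, H1-6, H2BC3 and H4C12 were lower, where 1.03% of genes were, and 0 were higher, where 1.58% were. No member (0) passed in the same direction on both days, where 0.187% of genes were lower and 0.306% higher. With a pseudocount of 0.1 FPKM H2AC1 passed on both days. With the doxycycline libraries compared across tables H1-1 did, so 1 member passed in each case. Members below 0 on both days, of whatever size, numbered 23 of 62, against 28.7% of all genes. Of these, 6 were lower in shEXOSC3 and higher in shNS on both days, against 4.99% of all genes, and 0 members had the opposite pattern, against 4.5%.

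The linker histone H1-1 (HIST1H1A, hg19 chr6:26017260-26018040) had the lowest mean adjusted difference of all members. It stood at 16.04 FPKM with doxycycline and 32.0 without it in shEXOSC3 on day 7, and at 42.7 and 46.9 in shNS. On day 5 it stood at 38.1 and 78.9 FPKM in shEXOSC3, and at 130 and 88 in shNS. The shEXOSC3 doxycycline library was thus the lowest of its day on both days, and the shNS doxycycline library on day 5 the highest of all 8. The adjusted differences were -0.82 on day 7 and -1.59 on day 5, with a mean of -1.21. Comparing the doxycycline libraries of the lines directly, across tables, gave a mean of -1.55. That value includes the lower level in shEXOSC3 without doxycycline. In the authors' deposited table the shEXOSC3 comparison of this gene has a p-value of 0.01555 and a q-value of 0.715 for day 7, and 0.00365 and 0.716 for day 5. Their shNS comparison has 0.643 and 0.969 for day 7. For day 5, where the gene was higher with doxycycline, it has 0.02515 and 0.875.

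H1-6 (HIST1H1T, hg19 chr6:26107640-26108364), the linker histone known from testis, was likewise lowest in the shEXOSC3 doxycycline library of each day. It stood at 7.12 FPKM with doxycycline against 14.1 without it in shEXOSC3 on day 7, and at 9.13 against 11.1 in shNS. On day 5 the values were 7.34 against 19.5 FPKM in shEXOSC3 and 14.9 against 15.1 in shNS. Both shEXOSC3 doxycycline libraries were below the other 6, and the adjusted differences were -0.63 and -1.28 on days 7 and 5. The 4 abundant linker histones showed smaller differences. H1-2, H1-3, H1-4 and H1-5 had adjusted differences of 0.06, 0.17, 0.19 and -0.12 on day 7 and of -0.44, -0.56, -0.67 and -0.40 on day 5.

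**Figure D4:**
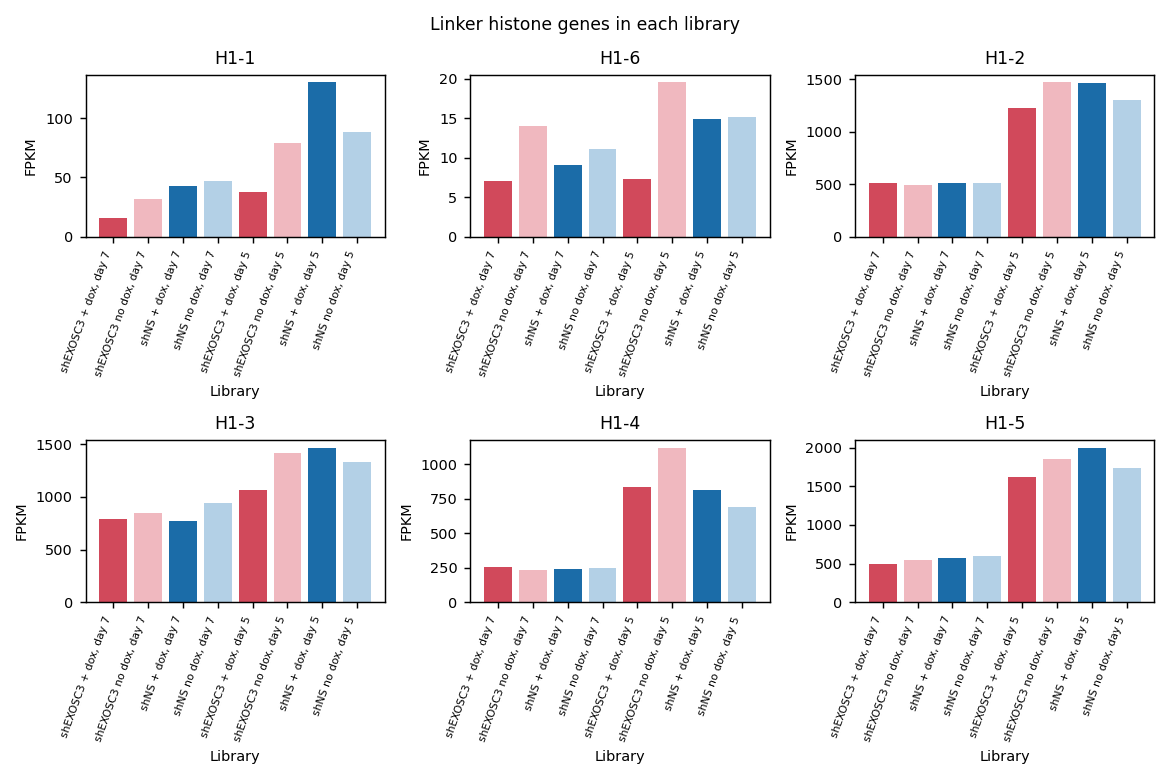
FPKM of the 6 linker histone genes in each library, 1 bar a library: shEXOSC3 in red and shNS in blue, with doxycycline dark and without it pale, day 7 left of day 5. H1-1 and H1-6 have their lowest bar of each day in the shEXOSC3 doxycycline library; the other 4 genes are far more abundant and differ less within a day.

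The promoters of H1-1 and H1-6 are shown with that of H1-5, the most abundant linker histone gene, to set members that were lowest beside 1 that was not. Each runs from 250 bases before to 50 after the transcription start (RefSeq, GRCh38.p14). Capitals mark the CCAAT box, the TATA box searched as TATAAA, the H1 box searched as AAACACA and the E2F motif searched as TTTCGCGC. Each was searched on both strands, and matches of different motifs were allowed to overlap.
H1-1 (chr6:26017738-26018037, minus strand): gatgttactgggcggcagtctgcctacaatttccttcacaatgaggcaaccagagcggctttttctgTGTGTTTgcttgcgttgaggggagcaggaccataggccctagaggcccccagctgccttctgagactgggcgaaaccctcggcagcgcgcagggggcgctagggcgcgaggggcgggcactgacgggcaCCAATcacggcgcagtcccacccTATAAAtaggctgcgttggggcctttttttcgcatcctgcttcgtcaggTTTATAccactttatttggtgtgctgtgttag
H1-6 (chr6:26108086-26108385, minus strand): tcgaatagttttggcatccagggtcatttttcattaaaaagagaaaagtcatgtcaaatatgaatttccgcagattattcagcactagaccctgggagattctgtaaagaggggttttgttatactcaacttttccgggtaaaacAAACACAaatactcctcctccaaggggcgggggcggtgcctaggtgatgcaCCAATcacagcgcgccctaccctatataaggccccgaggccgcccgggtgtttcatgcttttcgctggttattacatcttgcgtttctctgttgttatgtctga
H1-5 (chr6:27867539-27867838, minus strand): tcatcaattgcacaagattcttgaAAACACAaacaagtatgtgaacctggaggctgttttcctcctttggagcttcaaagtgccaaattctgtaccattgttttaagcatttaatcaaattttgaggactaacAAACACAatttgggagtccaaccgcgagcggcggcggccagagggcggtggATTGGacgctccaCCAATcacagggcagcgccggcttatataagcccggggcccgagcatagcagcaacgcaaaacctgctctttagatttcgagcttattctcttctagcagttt
AAACACA was in 6 of 6 H1 promoters (100%) and in 5.76% of all 27305 promoters. CCAAT, the box bound by NF-Y, was in 55 of 64 member promoters (85.9%) against 35.7% of all, but in 3 of 12 H4 promoters. TATAAA was in 43 of the 64 (67.2%) against 12% of all, with 2 matches in the H1-1 window and 0 in those of H1-6 and H1-5. The search counts only this exact string. The H1-6 and H1-5 windows hold the near form tatataa after their CCAAT box, and the later H1-1 match lies after the transcription start. The counts therefore show no lack of a TATA element in H1-6 or H1-5. TTTCGCGC was in 12 of the 64 (18.8%) against 0.546% of all, and in 0 of the 6 H1 promoters. These are matches of letters and not sites of binding.

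The germline members of the core histone classes were low in all libraries. H2AC1 (HIST1H2AA), a testis H2A, was listed at 0 with doxycycline against 1.94 FPKM without it in shEXOSC3 on day 7, and had 1.20 against 1.83 in shNS. On day 5 it had 0.384 against 1.55 FPKM in shEXOSC3 and 1.18 against 1.29 in shNS. Its adjusted differences of -1.19 and -0.80 on days 7 and 5 depend on the pseudocount, since the mean of -0.999 became -2.71 with 0.1 FPKM and -0.29 with 5 FPKM. The testis H2B gene H2BC1 was lower with doxycycline in both lines on day 7, at 0.668 against 3.69 FPKM in shEXOSC3 and 0.872 against 4.65 in shNS.

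Among the core histone genes, H2BC3 (HIST1H2BB) stood at 7.54 FPKM with doxycycline against 12.2 without it in shEXOSC3 on day 7, and at 8.72 against 13.1 in shNS. On day 5 it stood at 25.7 against 50.8 FPKM in shEXOSC3 and at 45.0 against 40.2 in shNS. Its adjusted difference was thus -0.09 on day 7 and -1.11 on day 5. H4C12, whose sequence H4C11 shares, had an adjusted difference of -1.04 on day 5, with 33.2 against 48.9 FPKM in shEXOSC3 and 69.0 against 48.7 in shNS; all 4 libraries of day 7 were under 3 FPKM. H2BC26 of the HIST3 cluster on chromosome 1 had 7.53 against 13.3 FPKM in shEXOSC3 and 17.2 against 16.9 in shNS on day 7. On day 5 it had 85.1 against 127 FPKM in shEXOSC3 and 130 against 135 in shNS. The adjusted differences, -0.77 and -0.51 on days 7 and 5, were of like size.

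At the other end were H4C11, H2AC15, H3C13, H4C5 and H3C1, the members with the highest mean adjusted difference. H4C11 had 1.35 FPKM with doxycycline in shEXOSC3 on day 7 and was listed at 0 without it, so it passed on a difference near 1 FPKM, and the values in shNS were 0.330 and 0.441. H2AC15 had 46.9 against 30.3 FPKM in shEXOSC3 and 32.8 against 37.1 in shNS on day 7, an adjusted difference of 0.79, and one of 0.05 on day 5. H3C1 had 0.77 and -0.35, H3C13 0.41 and 0.13, and H4C5 0.41 and 0.03 on days 7 and 5. With only the doxycycline libraries compared, across tables, the mean for H3C13 was -0.53, against an adjusted 0.27. That for H3C1 was -0.26, against 0.21. With a pseudocount of 5 FPKM the mean for H4C11 was -0.03, against 0.42. H3C1 lies between H1-1 and H4C1 in the cluster, and H4C1 had adjusted differences of -0.29 and 0.24.

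The difference between lines was also set against the spread between days, with limma on the 4 ratios of all 13387 genes. No member (0) passed an adjusted p of 0.05, and the smallest adjusted p of a member was 0.749. Across all genes 2 passed, or 0.0149%, and EXOSC3 itself had a mean difference of -0.98 ± 0.12 (SE) and an adjusted p of 0.749. At an unadjusted p under 0.05 there were 6 members, all lower in shEXOSC3, or 9.68% of members against 5.59% of genes. They were H1-1 (-1.21 ± 0.26, SE), H2AC1 (-0.999 ± 0.29), H1-6 (-0.96 ± 0.20), H2BC26 (-0.64 ± 0.12), H3C7 and H2BC12. In the authors' deposited tables, the smallest q-value of any member transcript was 0.192.

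The factors that make and remove histone mRNA had median differences near 0. Of 22 transcription and 3′ processing genes compared, 12 were below 0 on each day, with median adjusted differences of -0.05 and -0.09 on days 7 and 5. Among all genes 51.3% and 49.9% were below 0 on these days. SLBP had 33.7 against 39.4 FPKM in shEXOSC3 and 35.1 against 41.5 in shNS on day 7, and 31.5 against 35.2 and 37.8 against 31.7 on day 5. Its adjusted difference was 0.02 on day 7 and -0.40 on day 5, near the members' own medians. CPSF3 of the same list had 0.03 and -0.41, while CPSF1 had -0.19 and 0.51 and SNRPE 0.29 and 0.39. On day 5, 10 of the 22 genes were above 0. A relation to the histone values was not tested. NPAT, the coactivator, had adjusted differences of -0.16 and -0.08 on days 7 and 5, and LSM11 of the U7 particle had -0.06 and -0.14. LSM10, its partner in that particle, was the exception: 6.15 against 3.94 FPKM in shEXOSC3 and 3.97 against 4.06 in shNS on day 7, and 23.2 against 9.48 and 8.09 against 9.25 on day 5. Its adjusted differences were 0.56 and 1.38.

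Of 20 histone mRNA decay genes, 15 were below 0 on day 7 and 11 on day 5, with medians of -0.08 and -0.01. Among all genes 51.3% were below 0 on day 7 and 49.9% on day 5, shares that go beside each list here. ERI1 had adjusted differences of -0.08 and -0.20 and XRN1 of -0.06 and 0.16. The lowest on both days was EXOSC3, at -0.84 and -1.11. Of the S phase genes, 20 of 24 were below 0 on day 7 and 16 on day 5, with medians of -0.19 and -0.11. PRIM1, a DNA primase subunit, had 48.2 against 65.7 FPKM in shEXOSC3 and 71.5 against 63.6 in shNS on day 7, and 66.0 against 80.1 and 81.0 against 71.1 on day 5. Histone chaperones had medians of -0.10 and -0.02, with 11 and 8 of 14 below 0.

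Histone genes outside the family, most of whose mRNAs are made outside S phase too, had medians above 0. The values were 0.13 on day 7 and 0.07 on day 5, with 3 and 4 of 12 below 0, against 51.3% and 49.9% of all genes. Members had medians of 0.10 and -0.44, so the sign differed on day 5 only. The linker variant H1-10 had adjusted differences of 0.30 on day 7 and 0.29 on day 5, opposite in sign to H1-1. On day 7 the members H1-2, H1-3 and H1-4 were above 0 too. H3-3A and H3-5 were erratic: H3-5 had 89.4 FPKM in shEXOSC3 with doxycycline on day 7 and between 10.5 and 31.3 in the other 7 libraries. In bulk RNA, fewer cells in S phase and less histone mRNA per S phase cell cannot be told apart. Markers of other cell types were few. Fibroblast markers, 3 of 6 above the minimum and DCN and LUM at 0, summed to 27.8 against 31.8 FPKM with and without doxycycline in shEXOSC3 on day 7 and to 26.7 against 16.2 on day 5. In shNS they summed to 25.2 against 28.5 and to 20.01 against 22.9 FPKM. Neuroectoderm markers, 2 of 4 above the minimum, summed to 92.7 against 126 FPKM in shEXOSC3 on day 7 and 120 against 98.9 on day 5, and to 124 against 135 and 96.7 against 102 in shNS. Of trophectoderm markers 1 of 4 was above the minimum, and of mesendoderm and endoderm markers 0 of 6. Their part in the histone values was not tested.

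The largest differences computed for the family were between days. Summed member FPKM on day 7 were 33.4% of those on day 5 in shEXOSC3 with doxycycline and 29.8% without it, and 28.5% and 34.9% in shNS. Of 62 members 58 were lower on day 7 in all 4 groups, against 44% of all genes, and 42 were at least 2-fold lower in all 4, against 8.72%. Group by group, members at least 2-fold lower numbered 49 of 62 in shEXOSC3 with doxycycline (14.5% of all genes), 49 without it (13.9%), 49 in shNS with doxycycline (14.8%) and 42 without it (13%). The exception was H2BC12, the only member higher in all 4, where 33.7% of genes were: 102 and 113 FPKM in shEXOSC3 with and without doxycycline and 152 and 128 in shNS on day 7, and 72.6, 81.4, 72.7 and 67.6 on day 5. The tables give H2BC12 the same 8566 bp locus as H4C9, which was lower on day 7 in all 4 groups. The days come from separately made tables with 1 library per group, so day, culture and the scale of a table cannot be told apart and no test is given.

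The day difference was uneven among classes. Median log2 ratios of day 7 over day 5 in shEXOSC3 with doxycycline, shEXOSC3 without it, shNS with doxycycline and shNS without it were -3.34, -3.33, -3.55 and -2.91 for H3. They were -2.21, -2.20, -2.61 and -2.28 for H4, -1.57, -1.95, -1.78 and -1.47 for H2B, -1.23, -1.37, -1.23 and -0.88 for H2A, and -1.23, -1.42, -1.55 and -1.11 for H1. All genes had medians between -0.09 and -0.07. H3 genes thus took 6.80% to 7.42% of the summed histone FPKM on day 7, against 15.5% to 16.7% on day 5, and H2A genes 25.8% to 27.3% against 17.3% to 18.8%. Single H3 genes ranged widely. H3C7 had 32.5 and 35.8 FPKM in shEXOSC3 with and without doxycycline and 43.9 and 35.2 in shNS on day 7, and 824, 1012, 1081 and 868 on day 5. H3C11 had 457, 460, 505 and 565 FPKM on day 7 and 971, 1264, 909 and 858 on day 5 in the same order.

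**Figure D5:**
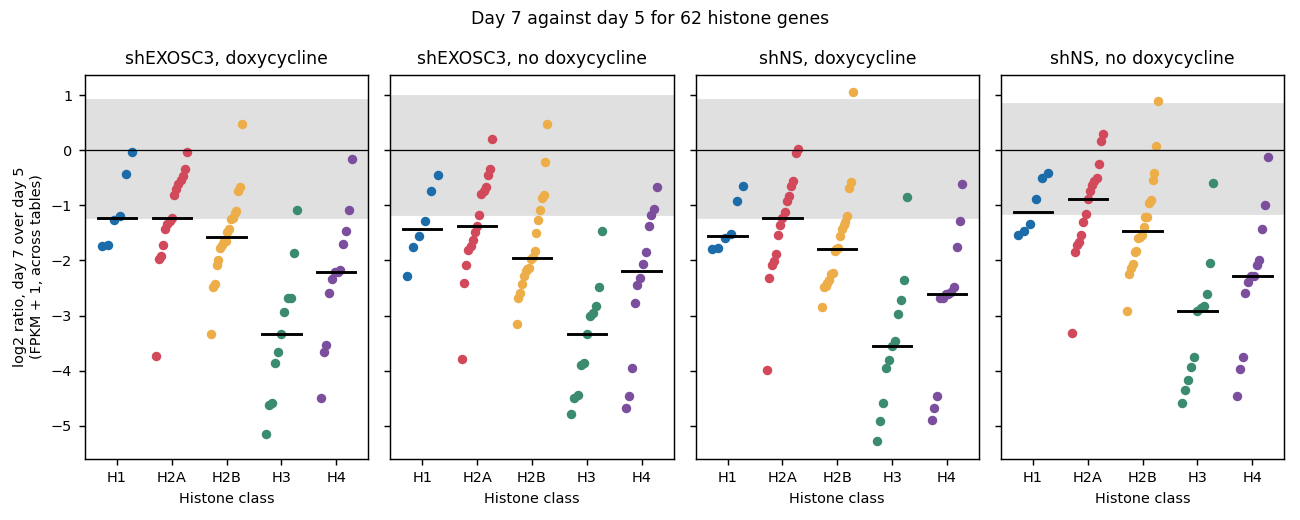
Log2 ratio of day 7 over day 5 (FPKM + 1, across separately made tables) of the 62 members by histone class, in 4 panels for line and doxycycline. Black bars are class medians and the grey band holds the middle 80% of all genes. The H3 median is lowest in all 4 panels, between -3.55 and -2.91, and 1 H2B gene, H2BC12, lies above 0 in all 4.

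Other measures moved with day as well. Each table's scale is shared with its 3 top transcripts, which held between 6.21% and 7.16% of the FPKM total in day 7 libraries and between 23.8% and 27.6% in day 5 libraries. The 15 other genes with a locus of 350 to 600 bp, the length of a typical histone gene, had day medians of -0.78, -1.37, -1.09 and -0.62 in the same group order. S phase genes had medians of -0.30, -0.22, -0.13 and -0.10. The 12 histone genes outside the family had medians of -0.39, -0.67, -0.70 and -0.47, with 8, 9, 9 and 9 below 0. Among these 12, H1-10 had values between -2.95 and -2.74, while H3-3B was above 0 in each group. Over the 62 members, Spearman's rho of the day difference was -0.04 with the share of 50-base stretches that a member shares with another and 0.35 with the length of its locus, as descriptions of genes that share libraries. The part of these measures in the day difference was not tested.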

How the data were processed

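RNA of 8 libraries, 1 per group, was read with CASAVA 1.8, TopHat and Cufflinks on hg19 (GRCh37), per the submitters' processing notes. The sources used here give no options, counting strand or annotation release. The 4 tables, of 2 libraries each, hold FPKM by RefSeq transcript as deposited, per the file headers. A p-value and a q-value by the authors, from 1 library against 1, stand beside them. All columns were mapped to groups by sample titles.

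FPKM were summed over the transcripts of a symbol (97.79% of 49235 transcripts had a single one) and genes with a failed or too deep estimate were left out. Log2 ratios used a pseudocount of 1 FPKM, which understates differences of low genes, within a table; day ratios crossed tables. With 1 library per group, calls were by size, an absolute log2 value of at least 1. limma 3.58.1 (R 4.3.3) used days as observations, 2 residual degrees of freedom and the Benjamini-Hochberg method; days are not replicates, so its p-values set lines against the spread between days. limma was also run on simulated data with 4 independent ratios per gene, which hold no effect shared by a day. That run is no check of the p-values given here. Named genes were the 3 most abundant of each class, the 5 highest and 5 lowest by mean adjusted difference, the HIST3, HIST4 and germline members, EXOSC3, main processing and decay factors, and 2 at each end of every list; others, such as H3C7, H4C12, H2BC12 and H1-4, were chosen after their values were seen, as were the alternatives that drop near-identical members. Members and lists were chosen with earlier results of these data known. Older symbols, promoters and GENCODE 29 transcripts come from reference tables on later builds.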

Additional observations from a re-analysis of the deposited data

Results flagged for a closer look

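Among the genes named by rule, 7 had doxycycline ratios of opposite sign in the 2 lines on both days. H3C7 (mean adjusted log2 difference -0.53) and H2BC12 (-0.33), named after their values were seen, were also lower in shEXOSC3 and higher in shNS. In the limma comparison of the lines none of the 7 passed, and their smallest adjusted p was 0.749. Values close to 0 meet the sign pattern by small margins. CCNA2, PRIM1, DAXX, H2AJ and LSM10 were named for their mean adjusted difference at an end of their list. That choice favours opposite signs, and on day 5 41 of 62 members were lower in shEXOSC3 and higher in shNS. The shares of all genes given here are therefore no measure of chance for any of the 7. Lower in shEXOSC3 and higher in shNS were H2BC5 (mean adjusted log2 difference -0.32), H3C6 (-0.10), CCNA2, the cyclin of S phase (-0.33), and PRIM1 (-0.53), where 4.99% of all genes had that pattern. Higher in shEXOSC3 and lower in shNS were DAXX, a chaperone of H3.3 (0.18), H2AJ, a replication-independent H2A (0.59), and LSM10 (0.97), where 4.5% of all genes had that pattern. The ratio of H3C6 in shEXOSC3 was -0.01 on both days, which is close to no difference.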

How the results depend on the processing

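No paired analysis was possible because each group has 1 library and the labels give no replicate numbers; for the same reason no replicate could be left out. Of 155 recomputed summary values 10 moved by more than the spread between days or, for counts, by more than 1.5 times, and 145 did not. Of the 58 medians and ratios among them 1 changed sign, the day 7 median adjusted difference, at -0.07 with doxycycline libraries across tables. The day 5 median adjusted difference ranged from -0.44 to -0.28 and the day 7 median from -0.07 to 0.10. The main values of these medians, -0.44 on day 5 and 0.10 on day 7, lie far apart and set the spread used. None of these shifts, the change of sign included, therefore counted as moved, and the count of 145 is a weak check for these medians. With a pseudocount of 0.1 FPKM 1 member was lower on both days. With 5 FPKM the members at least 2-fold different were 0 in shEXOSC3 on day 5 (lower), on day 7 (higher and lower) and in shNS on day 7 (lower), and a minimum of 5 FPKM gave 0 lower on day 7 in both lines. With doxycycline libraries compared across tables, 41 members were below 0 on day 7 and 1 was lower on both days. That comparison leaves out the libraries without doxycycline and is thus another measure. Rescaled over loci of at least 300 bp, the log2 ratio of summed FPKM in shEXOSC3 on day 5 was -0.10, against -0.22 as deposited, and the median of all genes in that ratio moved by 0.11. The cause was not tested. Of 412 values of 52 named genes 27 moved by more than the spread between days and 4 passed the 2-fold rule on both days, namely H1-1, H2AC1 and, under 2 settings, EXOSC3. Separately, 10 named genes changed sign in 1 setting each, none of them past the 2-fold rule on both days: H2AC11, H2AC25, H3C1, H3C13, H4C11, H4C3, CHAF1B, DIS3L2, HJURP and SNRPE. limma called 0 members under every setting run. Values under about 1 FPKM rest on few fragments, and depth is unknown.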
